A study of Caenorhabditis elegans with 2 samples.

Results

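The aminoacyl-tRNA synthetase genes of Caenorhabditis elegans were examined for binding of the TATA-binding protein TBP-1, measured by chromatin immunoprecipitation followed by sequencing (ChIP-seq). Members were the protein-coding genes whose symbol is an amino acid letter followed by ars, a hyphen and a digit. This rule gave 32 of the 19973 protein-coding genes on the 6 nuclear chromosomes of the WBcel235 assembly (ce11). Both libraries belong to 1 group of 2 biological replicates, so every comparison is between genes in the same animals and no second condition exists. The animals were whole young adults of mixed sex, 65 hours old, synchronised by starving first-stage larvae after bleaching. Their strain, OP746, carries the unc-119(tm4063) mutation and the transgene wgIs746, which holds tbp-1 tagged with TY1, EGFP and 3xFLAG together with unc-119(+). The labels differ on the antibody: their description names one against GFP, which would pull down the tagged protein alone, while their antibody field reads tbp1, and binding of untagged TBP-1 cannot be told apart here. Whole animals mix all tissues and the germ line, and the cells that carried a given peak cannot be told apart.

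Aminoacyl-tRNA synthetases join each amino acid to the tRNA that carries its anticodon, and so set the genetic code. Nuclear genes encode both the cytosolic enzymes and those of the mitochondrion, and some genes make enzyme for both compartments. TBP-1 takes part in transcription by RNA polymerases I, II and III. The synthetase genes are read by polymerase II, while the tRNA genes that their products act on are read by polymerase III.

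An occupied gene here is one with a peak summit no farther than 500 bp from an annotated transcript start. Of the 32 synthetase genes, 7 were occupied in the reproducible peak list (21.9%, exact 95% Clopper-Pearson interval 9.28% to 40%), against 10.2% of all protein-coding genes. The interval reaches below that background. It describes a count of genes, which are not replicates. The occupied genes were ears-2, mars-1, aars-1, qars-1, fars-3, kars-1 and vars-1, from the strongest peak to the weakest. They serve 7 different amino acids, and no amino acid had more than 1 occupied gene. Of the 11 amino acids with several members, 3 had an occupied one, and of the 9 with a single member, 4 did.

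The sequences under the 7 summits are shown because they carry every occupied call. Each runs 5' to 3' on the strand of the synthetase gene, with the 11 bases centred on the summit in capitals, and reaches up to 80 bases to each side, stopping short of annotated exons. They were read from the RefSeq copy of WBcel235. The stretches are chrIV:390469-390559 (minus strand, ears-2), chrIV:11635666-11635826 (minus, mars-1), chrII:11464546-11464706 (minus, aars-1), chrIV:15011232-15011392 (minus, qars-1), chrII:8464571-8464731 (plus, fars-3), chrII:7072625-7072785 (minus, kars-1) and chrV:8031252-8031410 (plus, vars-1).
ears-2: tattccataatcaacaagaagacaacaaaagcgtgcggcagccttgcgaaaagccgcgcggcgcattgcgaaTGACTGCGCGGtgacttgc
mars-1: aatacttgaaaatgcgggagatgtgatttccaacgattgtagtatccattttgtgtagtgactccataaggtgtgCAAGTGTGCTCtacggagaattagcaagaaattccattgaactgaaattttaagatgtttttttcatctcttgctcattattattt
aars-1: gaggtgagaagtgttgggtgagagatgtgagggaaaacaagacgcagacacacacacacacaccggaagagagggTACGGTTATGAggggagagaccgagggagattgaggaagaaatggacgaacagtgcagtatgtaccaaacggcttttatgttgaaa
qars-1: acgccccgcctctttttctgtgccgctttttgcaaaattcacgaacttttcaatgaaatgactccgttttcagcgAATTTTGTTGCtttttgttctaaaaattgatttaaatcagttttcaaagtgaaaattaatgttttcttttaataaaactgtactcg
fars-3: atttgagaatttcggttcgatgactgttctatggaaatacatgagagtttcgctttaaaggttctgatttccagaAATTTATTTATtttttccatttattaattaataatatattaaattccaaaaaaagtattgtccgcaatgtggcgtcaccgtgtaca
kars-1: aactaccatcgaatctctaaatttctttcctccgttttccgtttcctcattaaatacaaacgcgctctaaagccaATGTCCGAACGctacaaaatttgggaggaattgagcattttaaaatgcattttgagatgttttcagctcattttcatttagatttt
vars-1: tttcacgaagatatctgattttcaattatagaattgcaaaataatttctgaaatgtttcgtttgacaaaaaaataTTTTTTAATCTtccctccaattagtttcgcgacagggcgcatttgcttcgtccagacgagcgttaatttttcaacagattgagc

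The ears-2 and aars-1 stretches were richest in G and C, at 53.8% and 49.1%, and the other 5 held 29.8% to 34.8%. The letters TATAAA, the core of the classical TATA box, were searched on both strands of 161 bases centred on each summit. None of the 7 windows held them, against 12% of the windows around all 3862 reproducible summits and 13.5% of those around the 1647 reproducible summits at protein-coding genes. In windows from 250 bases before to 50 bases after the outermost annotated start, TATAAA was present at 8 of 32 members (25%), against 37.9% of all protein-coding genes. Among the occupied members mars-1 alone had it there (14.3%), against 32.9% of occupied protein-coding genes. The summits of mars-1, kars-1 and qars-1 lay outside these windows. The letters TGATGNAAN, the element bound by ATF4 in mammals, were present at 2 of 32 members (iars-1 and lars-1, 6.25%), against 7.42% of all protein-coding genes. None of the 7 occupied members had them, against 8.4% of occupied protein-coding genes. TCAGT, the core of the initiator described in Drosophila, was present at 14 of 32 members (43.8%), against 47.9% of all protein-coding genes. A match is a string of letters and not a binding site, and no difference was tested.

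The strongest peak of the family lay at ears-2, which RefSeq names a nondiscriminating mitochondrial glutamyl-tRNA synthetase. Such an enzyme joins glutamate both to its own tRNA and to that of glutamine. Its peak held rank 953 of 3862 by the authors' signal value in the reproducible list, rank 1027 in replicate 1 and rank 946 in replicate 2, where rank 1 is the strongest. The summit sat at -14 bp from the annotated start in the reproducible list, at -10 bp in replicate 1 and at -34 bp in replicate 2, negative values being upstream. With 215 bp it was the narrowest of the 7 peaks, the other 6 being 330 bp wide. The strongest pooled peak in reach of every other member was also 330 bp wide, so that width does not set the 6 apart. The whole gap of 91 bases between ears-2 and the divergent gene uncp-18 is printed above, and the summit lay at -78 bp from the start of uncp-18. The peak can therefore belong to either gene or to both. Of the 2035 occupied protein-coding genes, 13.1% had a peak at this rank or stronger.

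The remaining occupied genes had weaker peaks. Over the 7 the median rank was 2774 (range 953 to 3614), against a median of 2092 for the 2035 occupied protein-coding genes (interquartile range 1299 to 2915.5). All of the 7 but ears-2 ranked weaker than that median.

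mars-1 encodes the cytoplasmic methionyl-tRNA synthetase, which charges the initiator tRNA as well as the elongator. Its peak ranked 2177 in the reproducible list, 2152 in replicate 1 and 2676 in replicate 2, with summits at -259, -269 and -256 bp. The replicate summits lay 10 bp and 3 bp from the reproducible one, and both peaks were among the 3862 strongest of their list. qars-1, the glutaminyl-tRNA synthetase gene, ranked 2774 in the reproducible list, 2571 in replicate 1 and 3667 in replicate 2. Its summit lay at -331 bp from the start of a shorter transcript, at -331 bp in replicate 1 and -329 bp in replicate 2. That position is inside an intron of the longest qars-1 transcript, 1871 bp downstream of the outermost start. A second reproducible peak of rank 3371 lay at -554 bp from the outermost start, beyond the 500 bp limit, and at -298 bp from the divergent gene Y41E3.7.

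fars-3 encodes the beta subunit of phenylalanyl-tRNA synthetase, an enzyme built of alpha and beta subunits. Its peak ranked 2897 in the reproducible list, 2612 in replicate 1 and 3075 in replicate 2. The summits were spread more widely than at mars-1, at -197 bp, -275 bp and -362 bp. fars-1, named as phenylalanine-tRNA ligase by RefSeq, had no reproducible summit in reach. Its strongest pooled peak in reach ranked 8943, at -103 bp.

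At aars-1, kars-1 and vars-1 the peak was among the 3862 strongest of 1 replicate alone. aars-1, which RefSeq names the mitochondrial alanyl-tRNA synthetase despite its suffix, ranked 2647 in the reproducible list, 2064 in replicate 1 and 6364 in replicate 2. kars-1, the lysyl-tRNA synthetase gene, ranked 3373 in the reproducible list, 2841 in replicate 1 and 11490 in replicate 2. The deposited −log10 q of its replicate 2 peak was 0.67, where the highest value of that list is 3.78. A second reproducible peak upstream of kars-1, of rank 3675, lay at -911 bp, beyond the 500 bp limit, and at -488 bp from the divergent gene kat-1. For vars-1, a valyl-tRNA synthetase gene, replicate 2 had the stronger peak, with rank 3614 in the reproducible list, 6991 in replicate 1 and 2091 in replicate 2. The positions differed less than the ranks at kars-1, with summits at -290, -288 and -298 bp. At aars-1 they were -129, -110 and -184 bp, and at vars-1 they were -79, -185 and -80 bp. The vars-1 summit of replicate 1 thus lay 106 bp from the reproducible one and that of replicate 2 lay 1 bp from it.

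**Figure D1:**
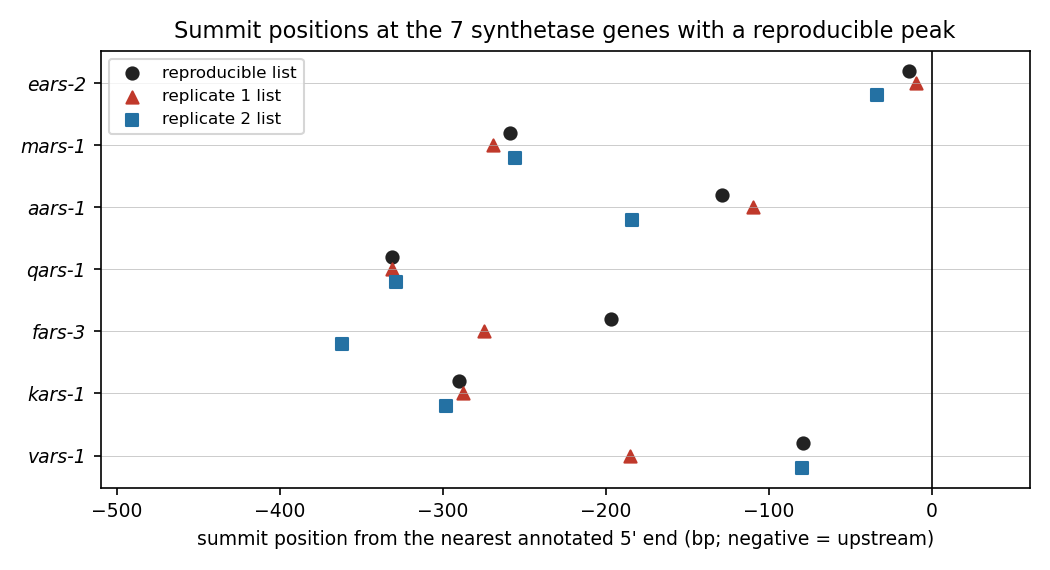
Position of the strongest summit within 500 bp of a 5' end at the 7 occupied synthetase genes, in bp from the nearest annotated 5' end, in the reproducible list and in each replicate's list. Every summit lies upstream of the start, from -331 bp at qars-1 to -14 bp at ears-2 in the reproducible list, and the lists are farthest apart at fars-3.

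All 7 reproducible summits lay upstream of the nearest annotated 5' end, with a median of -197 bp, against 85.6% of occupied protein-coding genes with an upstream summit and a median of -179 bp. The interquartile range was -274.5 to -104 bp for the members and -291.5 to -63.5 bp for all occupied protein-coding genes. Many worm messenger RNAs receive a spliced leader, so an annotated 5' end can lie downstream of where transcription began. The distances are measured from annotated ends. The member farthest from its start but inside the limit was qars-1, at 331 bp. The nearest reproducible summit of any unoccupied member was at pars-2, 932 bp downstream of the start of a short transcript and 277 bp past the gene's 3' end, where the start of T27F6.6 lay 191 bp away.

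The suffix of the gene name and the location in the product name did not sort the family alike. Genes ending in -1 were occupied in 5 of 20 cases (25%), those ending in -2 in 1 of 11 (9.09%), and the single gene ending in -3 was occupied. By RefSeq product names, 2 of 4 mitochondrial synthetases were occupied (aars-1 and ears-2; the others are pars-2 and rars-2) and 1 of 10 cytoplasmic ones (mars-1). The other 18 products name no compartment, and 4 of those genes were occupied. The order of the 2 groupings thus runs opposite ways, with aars-1 counted as -1 in the first and as mitochondrial in the second. These counts are too small to rank the groups. Taking the strongest 3862 peaks of a replicate alone, the -2 genes numbered 3 in replicate 2 (ears-2, pars-2 and rars-2) and 2 in replicate 1 (ears-2 and yars-2).

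Each replicate on its own gave the same number of occupied members but not the same genes. Among the 3862 strongest peaks of each replicate, 7 members had a summit in reach in replicate 1, against 10.1% of all protein-coding genes. In replicate 2, 7 members also had one, against 9.6% of all protein-coding genes. Only ears-2, fars-3, mars-1 and qars-1, 4 genes, were in both sets. The share of all protein-coding genes in both sets was not computed. By a related count, reproducible peaks that overlap one of the 3862 strongest peaks in both replicates were in reach of the same 4 members (12.5%). Of all protein-coding genes, 7.69% had such a peak in reach. Replicate 1 added aars-1, kars-1 and yars-2, and replicate 2 added pars-2, rars-2 and vars-1. rars-2 encodes the mitochondrial arginyl-tRNA synthetase and had rank 3346 in replicate 2, at -42 bp, with no summit in reach among the 30000 peaks of replicate 1. Across the 23 members with a summit in reach in both full replicate lists, the Spearman correlation of the ranks was 0.675. It is a description across genes, whose points share the same 2 libraries. The ranks of a gene can also come from different peaks. At dars-1 the strongest summit in reach lay at 434 bp in replicate 1 and at -81 bp in replicate 2.

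Just below the reproducible threshold the family was represented again. The reproducible list equals the 3862 strongest pooled peaks. Among the next 3862 pooled ranks, from 3863 to 7724, 7 members had a summit in reach (21.9%), against 8.54% of all protein-coding genes. They were nars-1, yars-2, tars-1, pars-2, rars-2, hars-1 and, with a further summit, qars-1. The strongest was nars-1, the cytoplasmic asparaginyl-tRNA synthetase gene, at pooled rank 4493 and -419 bp, with rank 6085 in replicate 1 and 5384 in replicate 2. yars-2, a tyrosyl-tRNA synthetase gene, followed at pooled rank 4516 and -28 bp, with rank 3210 in replicate 1 and 5294 in replicate 2. Both still had the highest −log10 q of the pooled list, 3.96, which all reproducible peaks share. tars-1, for threonine, ranked 4701 at -354 bp, and pars-2, for proline, ranked 4930 at -342 bp. rars-2 ranked 5233 with its summit on the annotated start itself, at 0 bp.

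**Figure D2:**
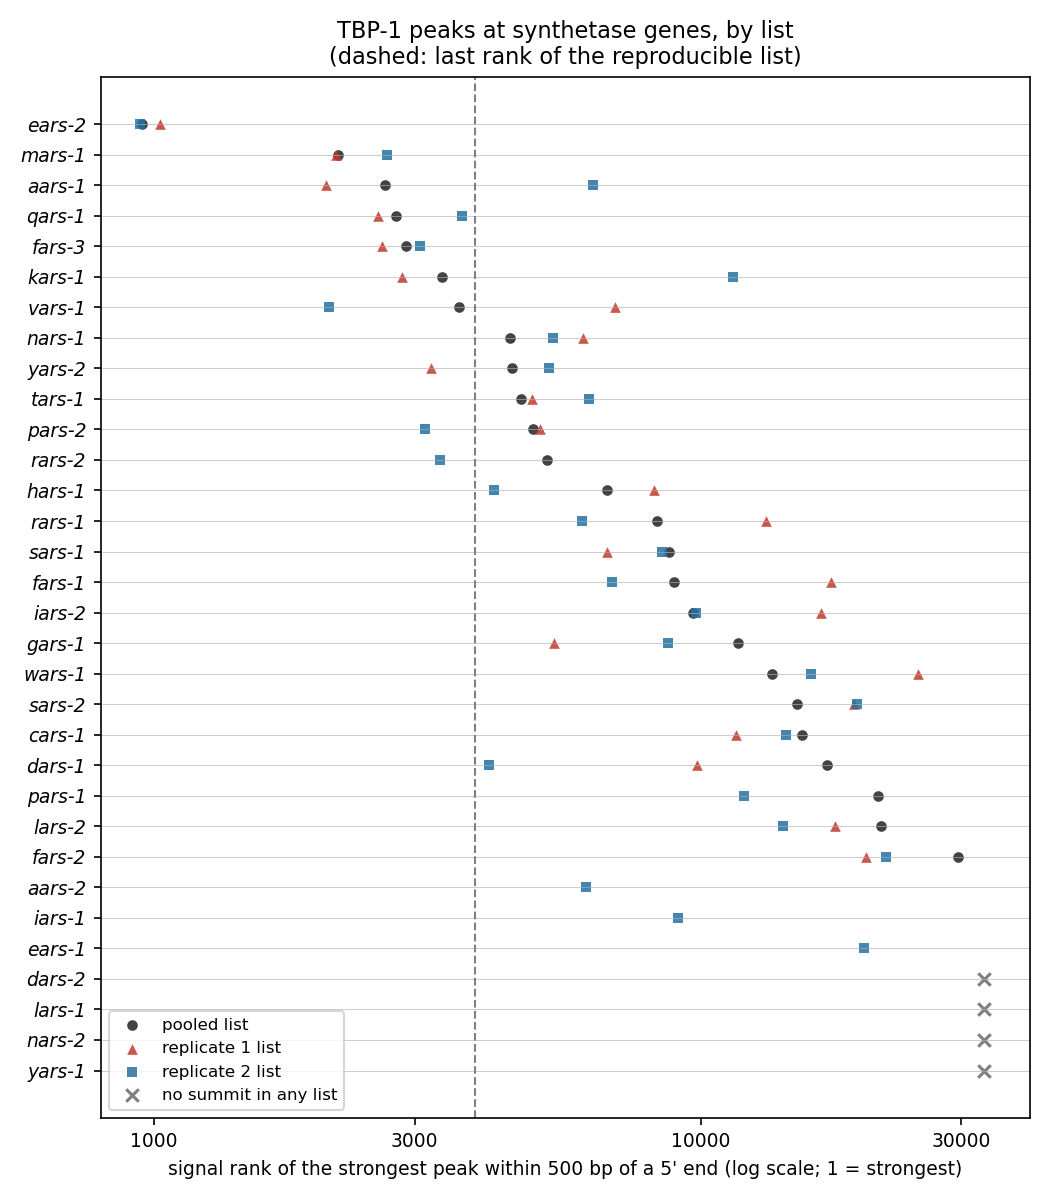
Signal rank of the strongest peak within 500 bp of a 5' end for each of the 32 synthetase genes, on a log axis, in the pooled list and in each replicate's list; crosses mark genes with no summit in any list. The 7 genes above the rest in the pooled list lie left of the dashed line at rank 3862, with ears-2 at 953, and nars-1 and yars-2 lie just right of it.

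In the full pooled list of 30000 peaks, which includes background peaks by the authors' description, 25 of the 32 synthetase genes had a summit in reach (78.1%, 95% interval 60% to 90.7%), against 35.8% of all protein-coding genes. In the full list of replicate 1 there were 23 (71.9%), against 36.9% of all protein-coding genes, and in that of replicate 2 there were 28 (87.5%), against 36.5%. In each of these 3 lists the family's interval lies above the protein-coding share. The interval describes a count of genes, which are not replicates, and the difference was not tested. A gene counts if any of its annotated starts is in reach, and members have from 1 (such as dars-1) to 5 (yars-2) distinct starts. The lists are not independent, since the pooled one holds the reads of both replicates. The 18 genes with a pooled summit but no reproducible one had ranks from 4493 to 29593 (median 9311) and −log10 q values from 0.19 to 3.96. Their summits lay between -419 and 290 bp, 13 of them upstream. Each of the 18 also had a summit in reach in replicate 2, and 16 had one in replicate 1, the exceptions being pars-1 and rars-2. Any summit in reach counted, so it need not be the same peak. At cars-1 the pooled summit lay at -301 bp and that of replicate 2 at 140 bp. The matching share of all protein-coding genes was not computed. The weakest was fars-2, at pooled rank 29593.

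**Figure D3:**
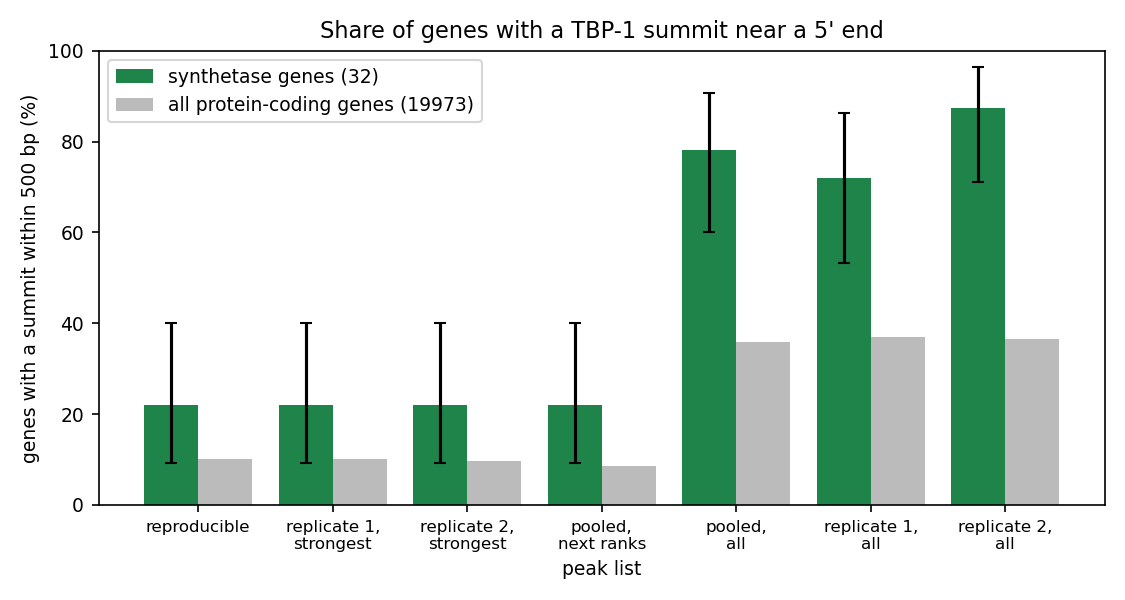
Share of the 32 synthetase genes and of all 19973 protein-coding genes with a summit within 500 bp of a 5' end, in 7 peak lists; error bars are exact 95% binomial intervals on the gene counts. The family's share is 21.9% in the 4 lists on the left and 71.9% to 87.5% in the full lists, and the protein-coding share is 8.54% to 10.2% and 35.8% to 36.9%.

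The 7 members with no pooled summit in reach were aars-2, dars-2, ears-1, iars-1, lars-1, nars-2 and yars-1. Of these, aars-2, which encodes the cytoplasmic alanyl-tRNA synthetase, had one in replicate 2 alone, at rank 6175 and -183 bp. ears-1 and iars-1 likewise had one in replicate 2 alone, at ranks 19875 and 9109. The other 4, dars-2, lars-1, nars-2 and yars-1, had none in any list. Among genes that differ only in suffix, the occupied gene was thus aars-1 and not aars-2 for alanine, and ears-2 and not ears-1 for glutamate. The RefSeq product of ears-1 names no compartment. For phenylalanine, fars-3 was occupied and fars-1 and fars-2 were not. The other 8 amino acids with several members had no occupied gene.

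The pooled summits were not gathered at the starts alone. Measured from the outermost annotated start, 10 of 32 members (31.2%) had a pooled summit between -250 and -1 bp, against 15.5% of all protein-coding genes. Between 250 and 499 bp downstream 8 members (25%) had one, against 7.76% of all protein-coding genes, and between -1000 and -501 bp 12 members (37.5%), against 15.7%. From 500 to 999 bp downstream the shares were 15.6% and 14.1%. In the reproducible list, 4 members (12.5%) had a summit between -250 and -1 bp, against 5.05% of all protein-coding genes. Between -500 and -251 bp there were 2 (6.25%), against 3.18%, and between -1000 and -501 bp also 2 (6.25%), against 2.65%. From 0 to 249, 250 to 499 and 500 to 999 bp there were 0 members, against 0.831%, 0.601% and 1.39% of all protein-coding genes, shares too low for a count of 0 in 32 genes to differ from them.

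**Figure D4:**
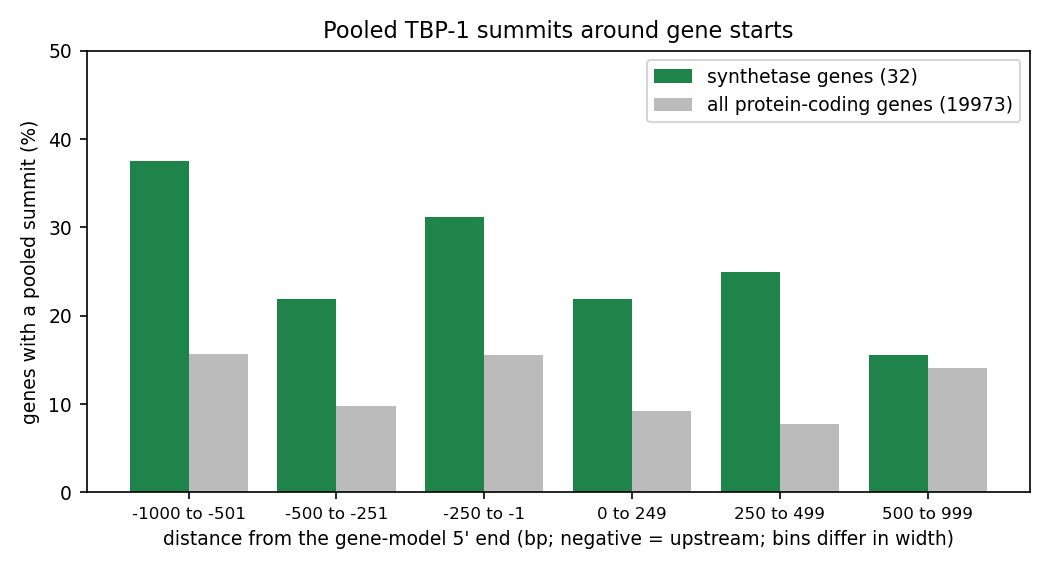
Share of the 32 synthetase genes and of all protein-coding genes with a pooled summit in each distance range from the outermost annotated 5' end; the ranges differ in width. The synthetase bars are higher from -1000 to 499 bp, as at -250 to -1 bp with 31.2% against 15.5%, and lie close to the others from 500 to 999 bp.

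The members were also grouped by their nearest upstream gene, a grouping chosen after seeing the data. A divergent protein-coding gene started within 500 bp of 6 members, and 2 of them, aars-1 and ears-2, were occupied (33.3%), against 26.6% of the 1817 protein-coding genes placed so. The aars-1 summit lay at -268 bp from rga-1, with 396 bases between the genes. The other 5 occupied members had no 5' end of another gene within 500 bp of their summit. Among 13 members with no protein-coding gene within 500 bp upstream, kars-1, mars-1 and qars-1 were occupied (23.1%), against 8.26% of 13242 genes. The grouping uses the outermost start, while an occupied call can come from any start. From its outermost start alone qars-1 was not occupied. A same-strand gene ended within 500 bp upstream of 10 members, a spacing found in worm operons, whose genes share 1 promoter at the head. Of these, fars-3 and vars-1 were occupied (20%), against 9.69% of 3538 genes. The 3 members that overlap an upstream gene, fars-1, iars-2 and tars-1, were not occupied, against 8.36% of 1376 such genes.

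The 2 occupied genes of the same-strand group had 2 of the 3 widest gaps to their upstream neighbour. fars-3 lies 335 bases past zyg-9 and vars-1 lies 196 bases past oma-2, while yars-2 lies 200 bases past miro-1. The other 7 have gaps of 65 to 131 bases. vars-1 is the single case in which the first gene of the run, here oma-2, was occupied too, with rank 2766 and a summit at -403 bp from its own start. That is 1 of 10 first genes, near the 10.2% occupied among all protein-coding genes. A share over the first genes of all such runs was not computed. The first gene was not occupied in the other 9 runs. One of them holds 2 synthetases side by side: yars-1 lies 109 bases past Y105E8A.20, which RefSeq names the mitochondrial methionyl-tRNA synthetase, and neither had a summit in any list. Operons were not annotated in the gene models, so these runs are defined by spacing alone.

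**Figure D5:**
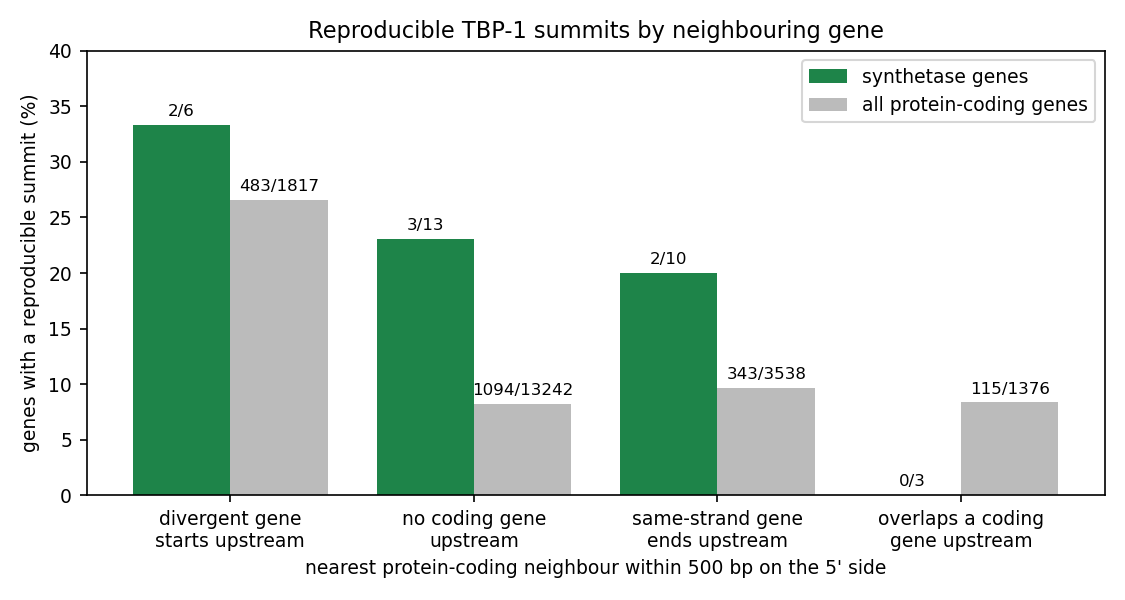
Share of synthetase genes and of all protein-coding genes with a reproducible summit within 500 bp of a 5' end, by the nearest protein-coding neighbour within 500 bp on the 5' side; the counts above the bars are occupied genes over all genes. Both kinds of gene have their highest share beside a divergent start, at 33.3% and 26.6%.

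Some unoccupied members had a reproducible peak elsewhere. There were 8 such summits at 7 genes, inside the gene or within 1000 bp of it, and the remaining 18 unoccupied members had none there. The same share over all unoccupied protein-coding genes was not computed, so whether this count is usual cannot be told. The strongest, of rank 301, lay in an intron of fars-1, at -71 bp from the snoRNA gene T08B2.13, -3 bp from a pseudogene and 200 bp from the ncRNA gene T08B2.14. It stands nearer to those ends than to any fars-1 start, the nearest being 1321 bp away. A peak of rank 2270 in an intron of nars-2 lay at -203 bp from the start of a protein-coding gene on the opposite strand. Peaks past the 3' ends of iars-1 and iars-2 had the starts of mpz-5 (-264 bp) and of clec-87 (13 bp) and rsa-1 (-348 bp) in reach. At cars-1 a peak of rank 3751 lay 51 bp past the 3' end and 155 bp from the start of Y23H5A.2. Near aars-2 a peak of rank 3006 lay 724 bp past the 3' end, and an exonic peak of iars-2 ranked 2598, neither with another 5' end within 500 bp. No occupied member shared its summit with a tRNA, snoRNA or snRNA gene. The nearest tRNA 5' end was 46569 to 502941 bp away over the 32 members.

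By chromosome, occupied members were on II (3 of 5, against 9.57% of all protein-coding genes there), IV (3 of 8, against 12.1%) and V (1 of 4, against 6.87%). On chromosome I 0 of 9 members were occupied, against 14% of all protein-coding genes there, and on chromosome III 0 of 6, against 14.7%. With so few members on each, these counts do not set the chromosomes apart, and no difference was tested. No member lies on X.

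Other genes of tRNA use were occupied unevenly. Of 11 listed genes that deliver charged tRNA to the ribosome or move it through, iftb-1 was not found in the annotation. Of the other 10, 9 were occupied (90%). Their strongest peaks were at eef-1A.1 (rank 925), eef-1G (rank 954) and eef-2 (rank 1000), which encode elongation factors, and eif-2alpha was the exception. Of the 9, 6 have another gene's 5' end in reach of the summit, and eef-1B.2, tufm-1 and eif-2gamma do not. The mitochondrial elongation factor genes tufm-1 and tufm-2 ranked 3227 and 3249, in the range of the 7 occupied synthetase genes. Of 13 genes for tRNA maturation, 1 was occupied (7.69%): pus-1, a pseudouridine synthase gene, with rank 2322 and a summit it shares with ctps-1. Of 3 genes of the response to uncharged tRNA, gcn-1 (rank 2908) and atf-4 (rank 3085) were occupied and gcn-2 was not. Another gene's 5' end is in reach of the atf-4 summit. Against the same background of 10.2%, the synthetase share of 21.9% lay between those of the delivery and maturation lists. No difference between lists was tested.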

How the data were processed

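TBP-1 ChIP-seq peaks were available for 2 biological replicates of 1 group. Per the file descriptions deposited with each library, peaks on ce11 were called against a control alignment for each replicate and for the pooled reads, and the irreproducible discovery rate then selected the reproducible list. For the peak caller and the aligner, nothing was given in the sources used here. Peaks were ranked within a list by the authors' signal value, whose scale is unstated. Values of −log10 q are printed as deposited. No read totals are given, so the depth is unknown. No peak passed a chromosome end of the reference, WBcel235 with Ensembl release 115 genes.

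Summits were placed at the peak start plus the deposited offset. The members, gene lists and settings were chosen with earlier results of these data known. Named genes are all occupied members, the 5 strongest members with pooled peaks alone, members without any, limits of the window, pairs that differ in suffix, genes that share a summit, and occupied genes of the other lists. The search was tested on simulated data with planted summits. Shares have exact binomial intervals for counts of genes. No test was run between genes, since genes are not replicates. No promoter table was at hand, so promoter windows were read from the genome. Product names and sequence are from RefSeq, and all 32 members matched. Python 3.11.15, numpy 2.4.6, pandas 2.3.3 and scipy 1.17.1 were used.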

Additional observations from a re-analysis of the deposited data

How the results depend on the processing

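The count of 7 occupied synthetase genes stayed within 1.5 times under several settings, but the share of all protein-coding genes, 10.2% at first, moved too. The count was 8 with a 1000 bp window (13.5% of all protein-coding genes) and 6 with outermost starts alone, without qars-1 (9.5%). It was 7 when a summit counted for the closest start alone (6.89%) and when any overlap of the peak counted (11.4%). It was also 7 when genes beside small RNA genes were dropped (9.31%), and with replicate 1 (10.1%) or replicate 2 (9.6%) alone. The count was 4 with a 250 bp window, 1 (ears-2) with the strongest 1931 peaks, 4 for peaks among the strongest of both replicates, and 25 with all pooled peaks. These counts are to be read against 6.38%, 4.56%, 7.69% and 35.8% of all protein-coding genes. The count with all pooled peaks was 19 with a 250 bp window, against 26.2% of all protein-coding genes. That setting was chosen after seeing the data, as was the grouping by upstream neighbour. Adding 4 genes with a tRNA ligase product under another symbol left the count at 7 of 36. Of the 7, ears-2 alone was occupied in all 10 alternatives other than the full pooled list, and kars-1 in the fewest, 6. The median summit position of -197 bp was -104 bp with the 250 bp window and -163 bp with the 1000 bp window, and -269 to -256 bp with 1 replicate. The median rank was 2571 to 3075 with 1 replicate. Occupied -1 genes numbered 2 with the 250 bp window and 3 to 4 with 1 replicate, and occupied -2 genes 2 with the 1000 bp window and 2 to 3 with 1 replicate, against 5 and 1. Grouped by location in the product name, they numbered 1 (cytoplasmic) and 2 (mitochondrial). Without read depth, a missing peak cannot be told from a weak one.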

Other observations

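The rule left out 4 genes that have a synthetase product in RefSeq under another symbol. They are glp-4 (valine), prx-10 (a mitochondrial tryptophan enzyme among its products), Y105E8A.20 (mitochondrial methionine) and K03B4.1 (a seryl-tRNA synthetase by name). None had a reproducible summit within 500 bp. K03B4.1 had a pooled peak of rank 6264 at 68 bp, with rank 4793 in replicate 1 and 11197 in replicate 2. glp-4 had a pooled peak of rank 15661 at -421 bp, present in replicate 1 (rank 12811) and not in reach in replicate 2. prx-10 had a summit in replicate 2 alone, at rank 16795 and -27 bp.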
